A study of Mus musculus with 6 samples.

Results

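The myogenic regulatory factors are the 4 muscle-specific members of the basic helix-loop-helix family, Myod1, Myf5, Myog and Myf6. They were taken by gene symbol from count and FPKM tables of 55376 genes, and all 4 were found. The tables came from an RNA immunoprecipitation experiment on muscle stem cells (satellite cells, SCs), freshly isolated by sorting from C57BL/6 mice aged 3 months. The mice carried no transgene or deletion that the labels name. The study regards such freshly isolated SCs as early activated rather than quiescent. The 6 libraries comprised 2 from an immunoprecipitation with an antibody to CPEB1 (CPEB1 IP), 2 from a control immunoprecipitation with IgG, and 2 from input RNA of the same kind of cells with no antibody. RNA immunoprecipitation followed by sequencing (RIP-seq) measures which transcripts come down with a protein, and the question here was how the transcripts of the 4 factors stood in the CPEB1 IP against the control IgG and against the RNA of the cells. The labels do not say how many animals stood behind a library or whether replicates came from separate mice. The study describes the RIP-seq as 2 independent experiments and its RNA-seq replicates as biological. The p-values measure only the spread between these libraries. The antibody and control comparisons shared libraries, since the same IgG libraries and the same input libraries entered more than 1 of them.

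The factors bind E-box DNA as dimers with the widely expressed E proteins and switch on muscle genes. Myf5 and Myod1 set the myogenic fate, Myog starts terminal differentiation, and Myf6 (also called MRF4) acts in differentiation and in mature fibres. Quiescent SCs are known to hold Myf5 and Myod1 transcripts whose translation is held back, with Myod1 protein accumulating as the cells activate, and Myog appearing once they differentiate. CPEB1 binds short U-rich cytoplasmic polyadenylation elements (CPEs) in the 3′ UTR and can, after phosphorylation, lengthen the poly(A) tail and raise translation.

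The sequences shown are CPE matches in the annotated 3′ UTRs, since these are the stretches of the transcripts that CPEB1 is known to bind. Each factor has 1 transcript in GENCODE M21, placed on mm10, and its length equals the gene length in the deposited tables. Myod1 (ENSMUSG00000009471.4) lies at chr7:46376474-46379099 on the plus strand, with 1861 bases of exon and a 3′ UTR of 705 bases. Myog (ENSMUSG00000026459.5) lies at chr1:134289989-134292548 on the plus strand, with 1495 bases of exon and a 3′ UTR of 753 bases. Myf5 (ENSMUSG00000000435.1, chr10:107482908-107486134) and Myf6 (ENSMUSG00000035923.4, chr10:107492853-107494737) are neighbours on the minus strand of the same chromosome, separated by 6718 bases. Their 3′ UTRs are 1112 and 501 bases long, with 71.7% and 66.7% A or T, against 49.1% for Myod1 and 51.0% for Myog. No other annotated gene overlaps any of the 4, and no stretch of 75 bases, the read length, is shared with a transcript of another gene. The match to each motif is in capitals, in 30-base windows of the transcript strand written with T for U.
Myod1, 188 bases after the motif to the end: gaccacttatttTTTTATataagacttttg
Myod1, 466 bases after the motif to the end: gtttgtttgttTTTTCATgcggctcacagc
Myf5, 77 bases after the motif to the end: tcatgagccaggTTTTATtaactatttgta
Myf5, 170 bases after the motif to the end: aggattgtaaaaTTTTATaggataatatca
Myf5, 579 bases after the motif to the end: ttcttaaaatcTTTTAATcgtataatctta
Myog, 670 bases after the motif to the end: tagcagggggcTTTTAAGTggggctgtcct
Myf6, 331 bases after the motif to the end: tcgccttggggcTTTTATtatgatacttat
Myf6, 408 bases after the motif to the end: acagatgccagcTTTTATgaaaggcgagag

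In the order printed, the windows cover chr7:46378894-46378923 and chr7:46378616-46378645 (plus strand) for Myod1, and chr10:107482973-107483002, chr10:107483066-107483095 and chr10:107483475-107483504 (minus strand) for Myf5. The Myog window covers chr1:134291860-134291889 (plus strand), and those of Myf6 cover chr10:107493172-107493201 and chr10:107493249-107493278 (minus strand). Called canonical here are TTTTAT and TTTTAAT. The other motifs searched were TTTTACT and TTTTCAT and, with longer runs of A, TTTTAAAT and TTTTAACT and TTTTAAGT and TTTTAATT and TTTTAAAGT, as found in the part of the study's list of CPE transcripts that was held, 146 entries. The search covered the transcript strand alone, since CPEs act in RNA, and TTTTAATT holds TTTTAAT. Myod1 had 1 canonical CPE (TTTTAT, starting at base 512 of the 3′ UTR) and 1 other listed motif (TTTTCAT, base 233). The study's primers for mutating the Myod1 3′ UTR fall on both sites, and the study counts both as canonical, while here the word covers only TTTTAT and TTTTAAT. Myf5 had 3 canonical CPEs and a TTTTACT, Myf6 had 3 canonical CPEs and a TTTTACT, and Myog had no canonical CPE and a TTTTAAGT near the start of its 3′ UTR. The factor with fewest canonical CPEs was thus Myog, and Myod1 had fewer than either Myf5 or Myf6.

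Such motifs are common: a canonical CPE was present in 57.8% of the 21010 genes with an annotated 3′ UTR, and any listed motif in 65.7%. Within the last 200 bases, counted over the 18078 genes whose 3′ UTR is that long, the shares were 34.1% and 44.1%. In that stretch Myod1 had 1 canonical CPE and Myf5 had 2, while Myog and Myf6 had none. The poly(A) signal hexamers AATAAA or ATTAAA were found in the last 200 bases of 85.3% of these genes. Myod1, Myog and Myf6 had 1 there and Myf5 had 2. The last one lay 18 bases from the 3′ end in Myod1, 16 in Myf5, 15 in Myog and 22 in Myf6.

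**Figure D1:**
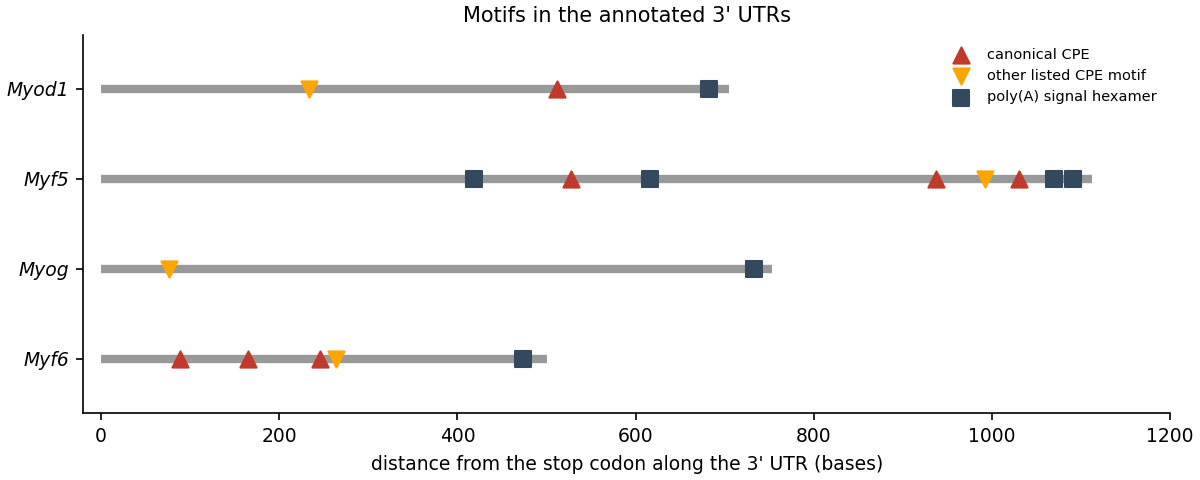
Position of CPE motifs and poly(A) signal hexamers along the annotated 3′ UTRs of the 4 factors, in bases from the stop codon (x axis); grey bars give the length of each 3′ UTR. The canonical CPE of Myod1 lies at base 512 of 705, Myf5 and Myf6 have 3 each, and Myog has none.

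In the input RNA, Myod1 and Myf5 were abundant and Myog and Myf6 were scarce. FPKM, the count divided by gene length and by a library total, allows levels to be compared between genes. Myod1 had an FPKM of 404 and 389 in the input libraries, which ranked it at 45 and 64 among the 55376 genes. Myf5 had an FPKM of 167 and 294, at ranks 151 and 94. Myog had 13.5 and 10.6, and Myf6 had 0.516 and 1.34. The order Myod1, Myf5, Myog, Myf6 held in each of the 6 libraries, and in input the levels of neighbours in this order did not overlap. With 2 libraries a group, no exact permutation test of any of these pairs can reach 0.05, since the smallest two-sided p is 0.333. In input the level is that of a bulk sample, where fewer cells of a type and less RNA per cell cannot be told apart.

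The same order was found in the precipitates. The FPKM in CPEB1 IP was 893 and 831 for Myod1, 190 and 155 for Myf5, 2.73 and 2.16 for Myog, and 0.863 and 0.668 for Myf6. Myod1 ranked at 13 and 12 among all genes there. In IgG the FPKM was 420 and 405 for Myod1, 101 and 102 for Myf5, 0.206 and 0.962 for Myog, and 0 and 0.228 for Myf6. Myod1 ranked at 16 and 17 in IgG, so that it was among the most abundant transcripts of the control precipitate too. The ranges of Myog and Myf6 overlapped in IgG, and no other neighbours overlapped in IgG or CPEB1 IP.

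The libraries differed in depth. IgG held 1284716 and 1359052 counts on genes, and the other libraries between 2564323 and 4941653. The counts on genes were 39.1% to 39.5% of the library total behind the FPKM in IgG, 69.5% to 69.9% in CPEB1 IP and 71.1% to 79.8% in input. A value per FPKM total and a value per count on genes therefore place IgG differently against the other groups, and both are given below where they part. Markers were counted as above 1 FPKM in a group where at least 1 of its libraries was. All 9 SC markers (Pax7, Myf5, Vcam1, Itga7, Cdh15, Calcr, Chodl, Sdc4 and Spry1) were so in each group. Their summed FPKM was 2323 to 2878 in input, 1124 to 1141 in IgG and 1982 to 2401 in CPEB1 IP. Among markers of other muscle-resident cells, the fibro-adipogenic list was the most abundant in input (194 to 242 FPKM summed, 4 of 5 above 1 FPKM), ahead of mural (53.0 to 73.3, 4 of 4), myofibre (24.6 to 26.7, 3 of 6), endothelial (15.3 to 17.2, 2 of 5), blood (12.1 to 17.6, 2 of 5) and Schwann cell markers (9.85 to 12.8, 3 of 3). In CPEB1 IP these sums were 162 to 178, 31.7 to 32.1, 44.4 to 57.4, 20.2 to 21.2, 27.1 to 32.7 and 19.9 to 25.9 in the same order, and in IgG 68.1 to 73.1, 15.7 to 18.6, 22.3 to 25.9, 8.92 to 10.95, 13.8 to 17.3 and 9.65 to 12.6. Single genes made up most of several sums. In input Dpt held most of the fibro-adipogenic sum (157 and 200 FPKM), while Pdgfra had 0.0867 and 0.0481 and Ly6a 5.59 and 4.40. Sdc4 (1454 and 1757), Rgs5 (38.2 and 56.7) and Tek (11.6 and 14.3) held most of the SC, mural and endothelial sums there. By edgeR 4 of 5 endothelial and 3 of 3 Schwann cell markers were higher in CPEB1 IP than in input. Mural markers had 0 higher and 2 lower of 4, fibro-adipogenic 2 and 2 of 4, and SC 0 and 4 of 9. Blood markers had 1 higher and 0 lower of 2, and myofibre 1 and 0 of 6. Of all genes, 17.0% were higher and 15.8% lower. In IgG over input, SC markers had 0 higher and 7 lower of 9. Endothelial markers had 3 higher and 0 lower of 5, Schwann cell 2 and 0 of 3, and mural 0 and 1 of 4. Fibro-adipogenic markers had 3 and 2 of 5, blood 2 and 0 of 3, and myofibre 2 and 0 of 6. Of all genes, 21.4% were higher and 19.4% lower. Some of these markers were scarce, as with Kdr (0.361 and 0.373 FPKM in input). Sox10, called higher in IgG, had 3.03 and 0.566 FPKM there and 0.641 and 1.18 in input. Over IgG, where 14.7% of genes were higher in CPEB1 IP and 18.7% lower, 5 of 9 SC markers were higher and 0 lower. The median log2 fold change of the SC markers was 0.35. Fibro-adipogenic markers had 2 higher and 0 lower of 5, blood 1 and 2 of 3, and myofibre 1 and 1 of 5. No endothelial, mural or Schwann cell marker was called there by edgeR. The part of such cells in the values of the factors was not tested.

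**Figure D2:**
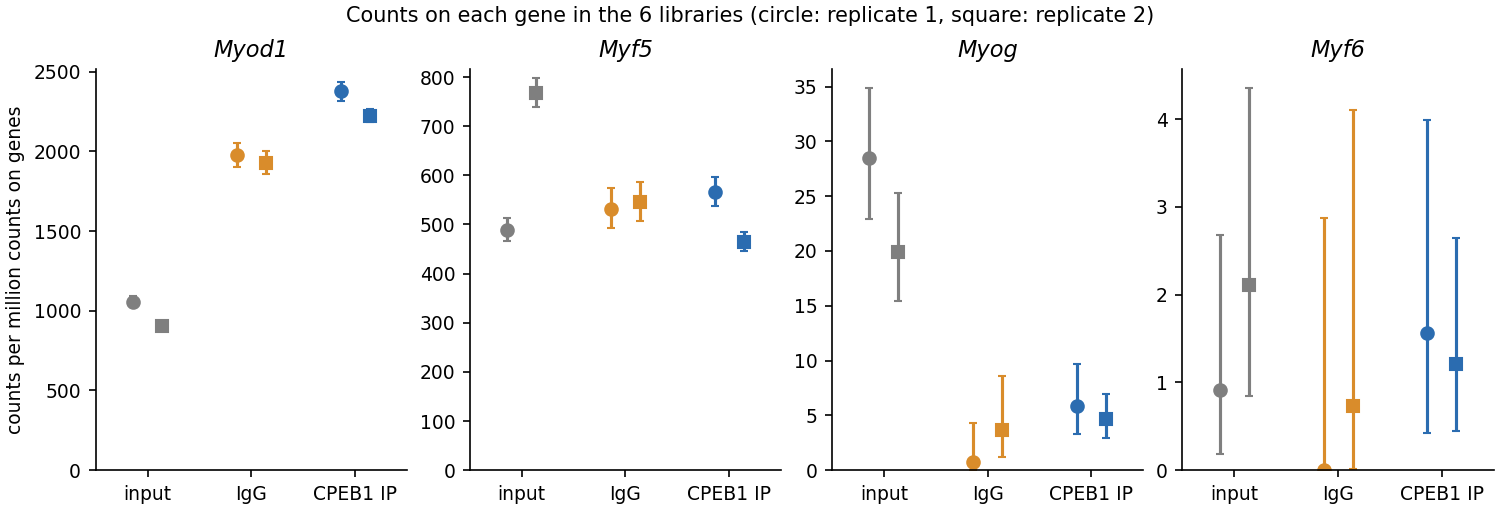
Counts on Myod1, Myf5, Myog and Myf6 in counts per 1000000 counts on genes (y axis, each panel with its own scale from 0) in input, IgG and CPEB1 IP. Circles are replicate 1, squares replicate 2, and error bars are exact 95% intervals for counting error. Myod1 is lowest in input and highest in CPEB1 IP, Myf5 overlaps between groups, and Myog is highest in input.

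Myod1 transcripts were higher in CPEB1 IP than in either of the other groups, by a wide margin over input and, in scaled counts, a narrow one over IgG. Myod1 is the factor whose transcript the study followed, as the only myogenic factor it reported as significantly enriched. The study also reported binding by quantitative PCR after CPEB1 immunoprecipitation. In its luciferase reporter assays, added CPEB1 raised the output of the Myod1 3′ UTR unless the CPEs were mutated. In SCs, the study reported less Myod1 protein after CPEB1 knockdown and after transfection of a CPEB1 antibody. Myod1 protein rose there with overexpressed wild-type CPEB1 and fell with a phosphorylation mutant. Those experiments are not part of the data used here. Raw counts of Myod1 were 3461 and 3003 in input, 2540 and 2623 in IgG and 6096 and 10998 in CPEB1 IP. Scaled to 1000000 counts on genes these came to 1058 and 906 in input, 1977 and 1930 in IgG, and 2377 and 2226 in CPEB1 IP. The groups did not overlap: both CPEB1 IP libraries lay above both IgG libraries, and all of these above both input libraries. Of all genes tested, 31.5% had both CPEB1 IP libraries above both IgG libraries in scaled counts, 33.9% had both above input, and 36.5% had both IgG libraries above input.

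Against IgG, Myod1 had 2389 ± 189 CPM in CPEB1 IP and 1996 ± 11.98 CPM in IgG (SD, n = 2 each), where CPM are counts per 1000000 after TMM, which corrects library sizes for composition. The log2 fold change was 0.26 (standard error, SE, 0.10; adjusted p = 0.0423) in the edgeR quasi-likelihood test (Benjamini-Hochberg) over the 12124 genes tested, a fold of 1.20. The 4 pairs of a CPEB1 IP and an IgG library gave ratios from 1.13 to 1.27. Of all genes tested, 30.4% had a larger log2 fold change than Myod1. Myod1 was 1 of the 2 factors with enough counts for this test and the only one of them called higher, where 14.7% of all genes tested were higher (1779 genes) and 18.7% lower (2265 genes), 33.4% together. With DESeq2 in place of edgeR, 2619 genes were higher and 984 lower of 19222 with an adjusted p. Without a filter on low counts edgeR called 3513 and 2336 of 42045.

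The call for Myod1 over IgG did not hold in every analysis. The study's methods take CPEB1 IP and IgG in pairs from 1 experiment, and with the replicate number as a block the log2 fold change was 0.26 (SE 0.13) with an adjusted p of 0.109 in the edgeR quasi-likelihood test (Benjamini-Hochberg). The call was also lost when IgG replicate 1 (0.32, adjusted p = 0.0830) or IgG replicate 2 (0.30, adjusted p = 0.121) was left out, by the same edgeR test, which then rests on 1 IgG library assumed to vary like the other group. Across its 10 alternatives the direction held, with log2 fold changes from 0.19 to 0.65 and adjusted p from 1.04e-10 to 0.121. The highest values came from DESeq2 (0.54) and from edgeR with no filter (0.65), where the median log2 fold change of the 12124 genes was 0.27 and 0.39 in place of -0.01.

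Against input, the difference in Myod1 was larger than the spread between replicates in every analysis run. The CPM was 2392 ± 176 in CPEB1 IP and 965 ± 98.1 in input (SD, n = 2 each). The log2 fold change was 1.31 (SE 0.13, adjusted p = 2.02e-05) in the edgeR quasi-likelihood test (Benjamini-Hochberg), a fold of 2.48, and 3.85% of the 12171 genes tested had a larger one. In this comparison 17.0% of genes were higher and 15.8% lower (32.8% together), and of the 3 factors tested Myod1 was higher, Myog lower and Myf5 not past the threshold. With each alternative the log2 fold change of Myod1 lay between 1.21 and 1.38.

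Scaled to the counts on genes, Myod1 was also higher in the control precipitate than in input, which the deposited FPKM does not show. The CPM was 1960 ± 12.7 in IgG and 1027 ± 108 in input (SD, n = 2 each), with ratios of 1.77 to 2.07 among the 4 pairs of libraries. The log2 fold change was 0.93 (SE 0.13, adjusted p = 2.55e-07) in the edgeR quasi-likelihood test (Benjamini-Hochberg), a fold of 1.91. Here 21.4% of the 12980 genes tested were higher in IgG and 19.4% lower (40.7% together), with Myod1 higher and Myog lower of the 3 factors tested, Myog having passed the filter through input alone, and 19.4% of genes had a larger log2 fold change than Myod1. With library sizes not corrected for composition, 3150 genes were higher and 2110 lower in place of 2772 and 2515, and Myod1 kept its call. Side by side, the fold of Myod1 in scaled counts was 2.48 for CPEB1 IP over input, 1.91 for IgG over input and 1.20 for CPEB1 IP over IgG. On the group means of the deposited FPKM (396 ± 10.96 in input, 413 ± 10.5 in IgG and 862 ± 43.6 in CPEB1 IP; SD, n = 2 each) the same folds were 2.17, 1.04 and 2.09. The position of IgG thus depended on the library total, while CPEB1 IP lay above input by either measure.

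**Figure D3:**
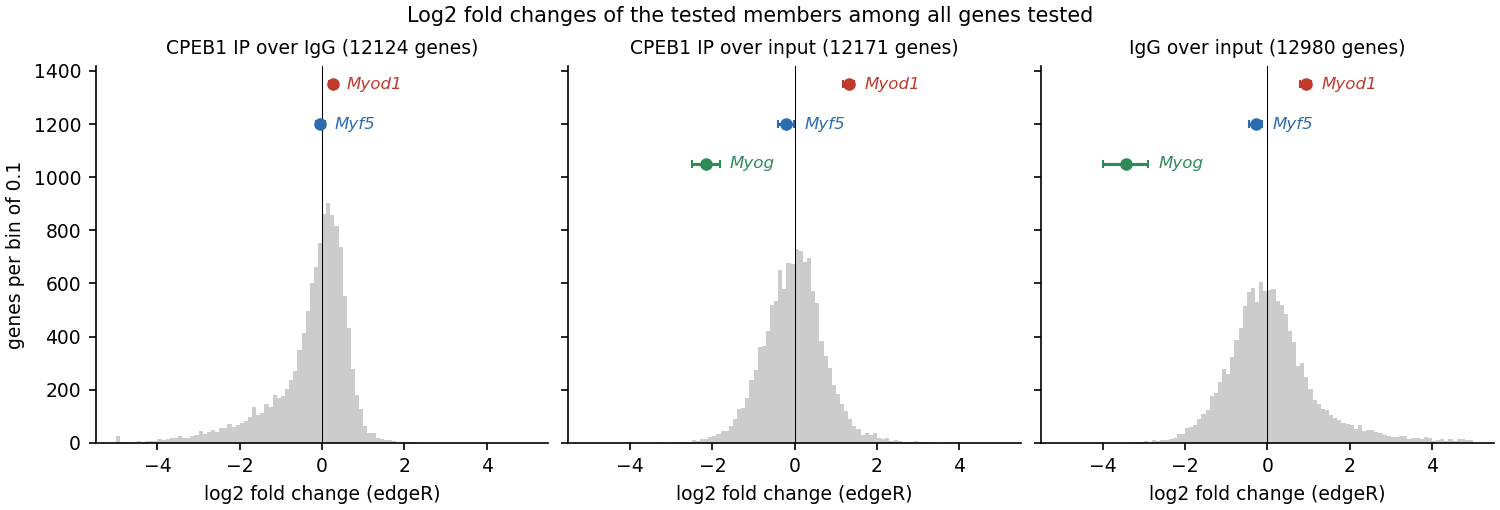
Log2 fold changes by edgeR of the factors with enough counts (coloured points with standard error, placed at arbitrary heights) over the distribution for all genes tested (grey, genes per bin of 0.1, values beyond 5 in size placed at the edge). Myod1 lies at 0.26, 1.31 and 0.93 from left to right, Myf5 close to 0 in each, and Myog at -2.16 and -3.44 against input.

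For Myf5 no difference between the groups passed the test, and the spread between its libraries was wide. Myf5, the earliest of the factors in the embryo and a marker of committed SCs, had raw counts of 1600 and 2545 in input, 684 and 741 in IgG and 1454 and 2298 in CPEB1 IP. Scaled to 1000000 counts on genes it had 489 and 768 in input, 532 and 545 in IgG, and 567 and 465 in CPEB1 IP. The groups overlapped, since the CPEB1 IP libraries lay on either side of both IgG libraries and the input libraries spanned the most.

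The log2 fold change of Myf5 for CPEB1 IP over IgG was -0.05 (SE 0.11, adjusted p = 0.787) in the edgeR quasi-likelihood test (Benjamini-Hochberg). The sign depended on the processing. It was 0.34 with no filter on low counts (adjusted p = 0.0291 by the same edgeR test, within a range of 0.0291 to 0.930 over the alternatives), where the median of all 12124 genes was itself 0.39. Against input the log2 fold changes were -0.21 for CPEB1 IP (adjusted p = 0.430) and -0.28 for IgG (adjusted p = 0.143) in the edgeR quasi-likelihood test (Benjamini-Hochberg). A single input library decided both values. Without input replicate 1 they were -0.55 (adjusted p = 1.13e-04) and -0.57 (adjusted p = 8.17e-08), and without input replicate 2 they were 0.16 (adjusted p = 0.222) and 0.09 (adjusted p = 0.552), by the same edgeR test with 1 input library.

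**Figure D4:**
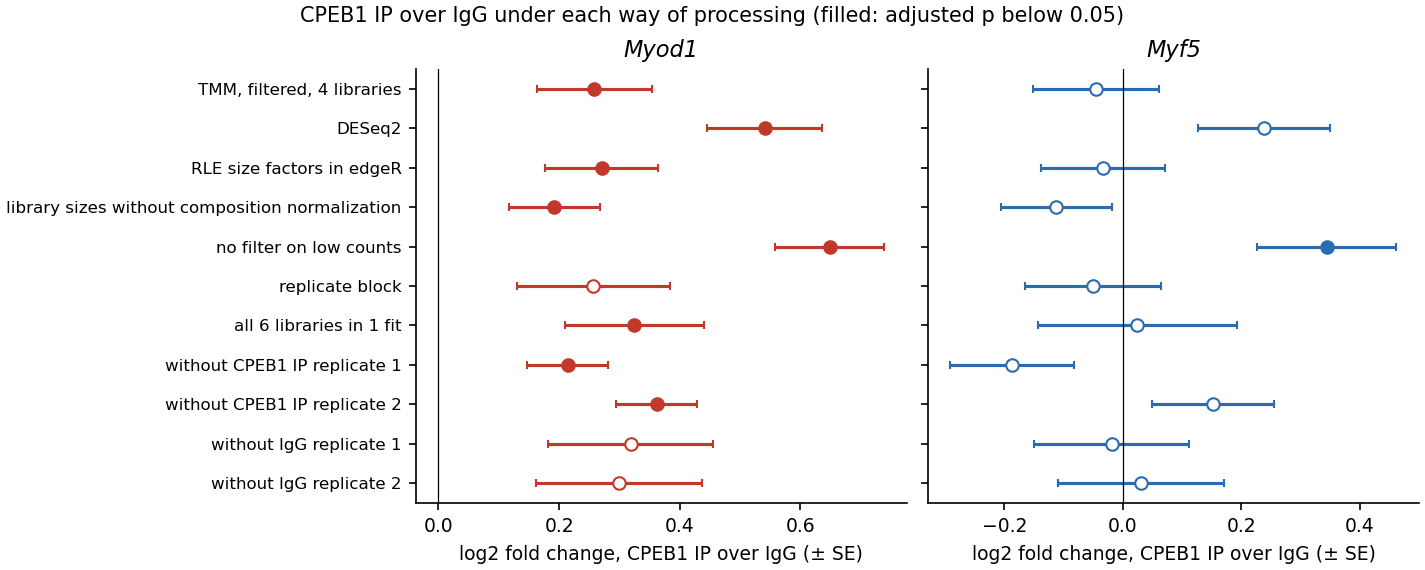
Log2 fold change of Myod1 and Myf5 for CPEB1 IP over IgG (x axis, with standard error) under each way of processing (y axis); filled points have an adjusted p below 0.05. Myod1 stays between 0.19 and 0.65 and is open under the replicate block and without either IgG replicate, and Myf5 lies on both sides of 0.

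Myog transcripts were rare in the precipitates and clearly present in input. Myog, whose product starts differentiation, had raw counts of 93 and 66 in input, 15 and 23 in CPEB1 IP and 1 and 5 in IgG. Scaled to 1000000 counts on genes it had 28.4 (exact 95% Clopper-Pearson interval 23.0 to 34.8) and 19.9 (15.4 to 25.3) in input, against 0.778 (0.0197 to 4.34) and 3.68 (1.19 to 8.59) in IgG and 5.85 (3.27 to 9.65) and 4.65 (2.95 to 6.98) in CPEB1 IP. These intervals cover counting error only. Input lay above both precipitates with no overlap, as did 33.5% of genes tested against CPEB1 IP and 34.5% of those tested against IgG, while the intervals of CPEB1 IP and IgG overlapped.

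Against input, Myog fell in CPEB1 IP to a log2 fold change of -2.16 (SE 0.33, adjusted p = 3.75e-04) in the edgeR quasi-likelihood test (Benjamini-Hochberg), a fold of 0.224. The call held in the 10 alternatives, with a range of -2.38 to -1.93. For IgG over input, Myog passed the filter on low counts through input alone, so that its log2 fold change of -3.44 (adjusted p = 3.39e-06, same edgeR test) is that of a gene that could enter the test only by being high in input. Its 6 counts in IgG against 159 in input gave a ratio of 0.0878 after scaling by TMM (exact 95% interval 0.0317 to 0.195, counting error only). Between CPEB1 IP and IgG Myog had too few counts for the main test. Its 38 counts against 6 gave a ratio of 2.41 after scaling by TMM (exact 95% interval 1.01 to 6.98, counting error only). Where alternatives admitted it, the log2 fold change lay between 0.54 without IgG replicate 1 and 2.73 without IgG replicate 2, and no adjusted p was below 0.0813 (edgeR or DESeq2, Benjamini-Hochberg).

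Myf6 was at the limit of detection. It had 3 and 7 counts in input, 4 and 6 in CPEB1 IP and 0 and 1 in IgG. The IgG library without a count allows up to 3 counts, or 2.34 per 1000000 counts on genes, which is above the 0.917 and 2.11 of the input libraries. A difference between IgG and the other groups was thus not detectable at this depth. The ratio after scaling by TMM was 3.81 for CPEB1 IP over IgG (10 counts against 1, exact 95% interval 0.541 to 165) and 0.886 for CPEB1 IP over input (10 counts against 10, 0.331 to 2.37). Both intervals include 1.

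The FPKM in CPEB1 IP over that in IgG, taken within each experiment (libraries of the same replicate number), is the measure that the study's methods use, with a ratio above 2 in each experiment and an adjusted p from DESeq2 under 0.05 as the criteria. The methods state no pseudocount. With a pseudocount of 1, Myod1 had ratios of 2.12 and 2.05 and was above 2 in both. Myf5 had 1.87 and 1.51, Myog 3.10 and 1.61, and Myf6 1.86 and 1.36. No other factor was above 2 in both experiments with this pseudocount, and 14.4% of the 12124 genes tested by counts were. With a pseudocount of 0.1 Myog (9.27 and 2.13) and Myf6 (9.63 and 2.34) were above 2 in both as well, while with a pseudocount of 5 Myod1 alone was (2.11 and 2.04). By DESeq2, Myod1 was higher in CPEB1 IP (0.54, adjusted p = 4.44e-07) and Myog was not called (adjusted p = 0.301). The median ratio of these genes was 1.45 in experiment 1 and 1.52 in experiment 2, so that each ratio was above the median of its experiment except those of Myf5 and Myf6 in experiment 2.

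With the FPKM recomputed from the counts and TMM library sizes, the ratio of Myod1 was 1.35 and 1.22, that of Myf5 1.20 and 0.901, that of Myog 3.45 and 1.24, and that of Myf6 2.31 and 1.27. No factor then exceeded 2 in both experiments, and 0.759% of genes did, with a median of 1.05 in each experiment. Myod1 was thus above 2 in both experiments with the deposited library totals, of which IgG had the lowest share on genes, and not with TMM library sizes. The ratios of Myog and Myf6 rest on 6 and 1 counts in IgG.

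A ratio of both abundant factors inside a library is free of any scaling between libraries. Counts per kilobase on Myod1 were 2.42 times (exact 95% interval 2.28 to 2.57) and 1.32 times (1.25 to 1.39) those on Myf5 in the input libraries. The ratio was 4.16 (3.82 to 4.53) and 3.96 (3.65 to 4.30) in IgG, and 4.69 (4.43 to 4.97) and 5.36 (5.12 to 5.61) in CPEB1 IP. The groups did not overlap, but the share of other gene pairs that do the same was not computed. For single genes such separation was common: 31.5% had CPEB1 IP above IgG and 36.5% had IgG above input. The rise of the ratio from input to IgG was larger than that from IgG to CPEB1 IP. The input libraries differed mostly in Myf5, with 1600 and 2545 counts beside 3461 and 3003 on Myod1. Group means were 1.87 ± 0.778, 4.06 ± 0.137 and 5.02 ± 0.470 (SD, n = 2 each), and the mean log2 ratio was 0.31 higher in CPEB1 IP than in IgG and 1.18 higher in IgG than in input. With 2 libraries a group, an exact permutation test cannot go below 0.333, so none was made. In the same libraries Myog had 26.9 and 22.0 counts for each 1000 on Myod1 in input, 0.394 and 1.91 in IgG and 2.46 and 2.09 in CPEB1 IP.

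**Figure D5:**
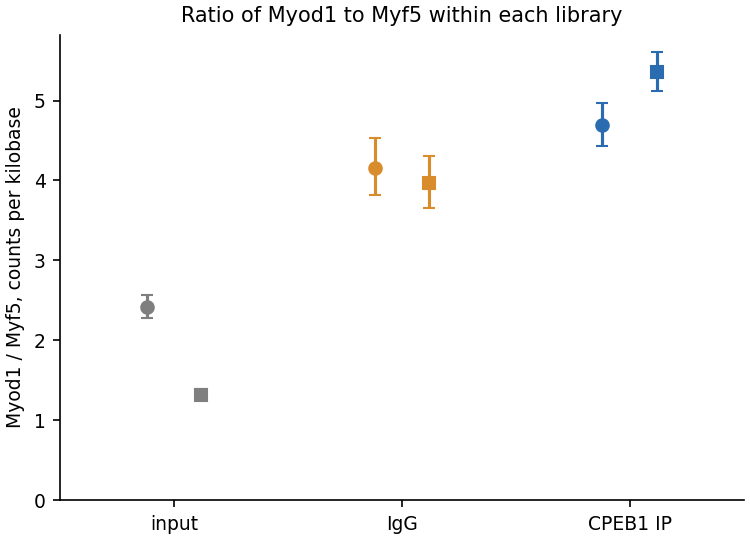
Ratio of Myod1 to Myf5 in counts per kilobase (y axis, from 0) within each library of input, IgG and CPEB1 IP; circles are replicate 1, squares replicate 2, and error bars are exact 95% intervals for counting error. The input libraries sit at 2.42 and 1.32, IgG at 4.16 and 3.96 and CPEB1 IP at 4.69 and 5.36.

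The genes whose levels moved across the 6 libraries most like each abundant factor were found by the root mean square difference of log2 CPM, each gene centred on its own mean, among 7065 genes with at least 20 counts in every library. For Myod1 these were Cst3, which encodes the protease inhibitor cystatin C (0.0736), Imp4, a ribosome biogenesis factor (0.0736), and Sgms2, a sphingomyelin synthase (0.0804). For Myf5 they were the GTPase gene Rab10 (0.0719), the metallothionein gene Mt2 (0.0728) and Ier3 (0.0764). These points share libraries and their depth, and no test was made.

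The other genes of the myogenic programme moved in both directions. Of 12 upstream activators of the factors, 10 had enough counts for CPEB1 IP against IgG. None was called in the edgeR quasi-likelihood test (Benjamini-Hochberg), where 14.7% of all genes were higher and 18.7% lower. Of these 10, 0 had an unadjusted p under 0.05 in that test. DESeq2 called 0 of 12, where it called 2619 genes higher and 984 lower of 19222. The median log2 fold change was -0.07 beside -0.01 for all genes. Pax7, the paired box factor that defines SCs, had a log2 fold change of 0.02 (SE 0.14, adjusted p = 0.945) by the same test. Against input, 4 of 11 activators were lower in CPEB1 IP and none higher, where 15.8% of all genes were lower and 17.0% higher. Pax7 was among them, at -1.84 (adjusted p = 1.58e-06) in the edgeR quasi-likelihood test (Benjamini-Hochberg). In IgG over input, Pax7 had -1.98, so that both precipitates held less of it per count than input, while Myod1 was higher in both.

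Of 12 partners and coactivators of the factors, 11 were tested in CPEB1 IP against IgG, with 3 lower (Tcf3, Tcf12 and Mef2c) and none higher, where 18.7% of all genes were lower and 14.7% higher. DESeq2 called 1 of 11 higher and 0 lower, where it called 2619 genes higher and 984 lower of 19222. Tcf3, which encodes the E proteins E12 and E47 that pair with Myod1, had a log2 fold change of -0.71 (SE 0.22, adjusted p = 0.0185) in the edgeR quasi-likelihood test (Benjamini-Hochberg). The call for Tcf3 was lost with DESeq2 (-0.41), with no filter (-0.31), and when CPEB1 IP replicate 2 (-0.41) or IgG replicate 1 (-0.53) was left out, with adjusted p from 0.00950 to 0.475 over its alternatives (edgeR or DESeq2, Benjamini-Hochberg). Mef2d, a MADS box cofactor, had -8.03e-04 (SE 0.11, adjusted p = 0.997) by that test. Against input, 1 of 11 partners was higher in CPEB1 IP (Mef2a) and 1 lower (Tcf3, -1.30), where 17.0% of all genes were higher and 15.8% lower.

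Of 20 inhibitors of the factors, 17 were tested against IgG, with 2 higher (Msc and Heyl), 2 lower (Mdfic and Bhlhe41) and 13 not called, where 14.7% of all genes were higher and 18.7% lower. DESeq2 called 5 of 18 inhibitors higher and 0 lower, where it called 2619 genes higher and 984 lower of 19222. Msc, a basic helix-loop-helix repressor also called MyoR, had log2 fold changes of 0.43 over IgG (adjusted p = 8.91e-04) and 0.70 over input (adjusted p = 0.00121) in the edgeR quasi-likelihood test (Benjamini-Hochberg). Id3, which ties up E proteins, had 0.18 over IgG (SE 0.09, adjusted p = 0.146) by the same test, and 0.30 without CPEB1 IP replicate 2. It was called with DESeq2 (0.47) and with no filter (0.57). In the latter pair the medians of the 12124 genes of the main test were 0.27 and 0.39. Over input, 4 inhibitors were higher in CPEB1 IP and 7 lower, where 17.0% and 15.8% of all genes were.

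Of 34 target genes of the factors, 23 were tested in CPEB1 IP against IgG, with 7 higher, 2 lower (Myh8 and Tnnt2) and 14 not called, and a median log2 fold change of 0.22 beside -0.01 for all genes, of which 14.7% were higher and 18.7% lower. DESeq2 called 10 of 31 targets higher and 1 lower, where it called 2619 genes higher and 984 lower of 19222. Musk, the receptor kinase of the neuromuscular junction, had 0.74 over IgG (SE 0.09, adjusted p = 6.38e-06) and 0.88 over input (adjusted p = 1.83e-04) in the edgeR quasi-likelihood test (Benjamini-Hochberg). The intermediate filament gene Des had 0.09 over IgG (SE 0.09, adjusted p = 0.457) by the same test. It was called with DESeq2 (0.38) and with no filter (0.49), where the medians of the 12124 genes of the main test were 0.27 and 0.39. Against input, 7 of 21 targets were higher in CPEB1 IP and 6 lower, where 17.0% of all genes were higher and 15.8% lower. Acta1, the skeletal actin gene and the marker that made up most of the myofibre sum, was among those higher, with 33.5 and 41.8 FPKM in CPEB1 IP against 16.4 and 15.1 in input and 17.0 and 14.6 in IgG. Of the 6 myofibre markers it was the only one called over input.

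Of 10 genes for RNA-binding proteins that act on transcripts of the factors, all were tested against IgG, with 4 higher (Cpeb1, Zfp36, Zfp36l1 and Elavl1), none lower and a median log2 fold change of 0.35, where 14.7% of all genes were higher and 18.7% lower. DESeq2 called 6 of them higher and 0 lower, where it called 2619 genes higher and 984 lower of 19222. Over input, 3 were higher in CPEB1 IP and 1 lower by edgeR, where 17.0% of all genes were higher and 15.8% lower. Zfp36, which encodes the mRNA decay factor tristetraprolin, had 0.56 over IgG (SE 0.10, adjusted p = 2.11e-04) and -1.04 over input (adjusted p = 8.01e-05) in the edgeR quasi-likelihood test (Benjamini-Hochberg). Zfp36l1, of the same family, had 0.52 over IgG (SE 0.09, adjusted p = 2.53e-04) by the same test and 0.04 over input. Zfp36 was thus called higher against IgG and lower against input. Cpeb1, Elavl1, Msc and Musk were called higher in both comparisons. So was Myod1, whose call over IgG did not hold in every analysis.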

How the data were processed

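Per the labels and the study's methods, RNA of sorted SCs was amplified with SMART-Seq2, and the submitters' processing notes name HISAT2, featureCounts, StringTie and mm10 (GRCm38). The authors deposited whole-number counts for each gene and library without normalization, with the gene length in bases. The authors' deposited FPKM equals the count divided by the gene length and a library total larger than the counts on genes. Annotation release, strand setting and the treatment of multiply mapped reads are not given in the sources used here. Every sample column was used.

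Group comparisons used edgeR 4.0.16 in R 4.3.3 on the counts (filterByExpr, TMM, quasi-likelihood test, Benjamini-Hochberg over all genes tested, threshold 0.05), 2 groups at a time. The standard error is the log2 fold change divided by the square root of F. DESeq2 1.42.0, RLE size factors, no composition normalization, no filter, the replicate block, all 6 libraries in 1 fit and leaving out each library were alternatives, as were other pseudocounts and motif sets. The FPKM ratio used a pseudocount of 1. The procedure was tested on simulated data. Of 100 genes with a log2 fold change of 1, 53 were recovered for CPEB1 IP over IgG. The number was 52 for CPEB1 IP over input and 39 for IgG over input. With a log2 fold change of 2, these were 85, 91 and 82 of 100. Unchanged genes called numbered 3, 0 and 5 in the same order. A difference of this smaller size can thus go uncalled. Intervals are exact Clopper-Pearson at 95%. Motifs were searched in GENCODE M21 transcripts with Python 3.11.15, pandas 2.3.3, scipy 1.17.1 and matplotlib 3.10.9.

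The study's methods pair CPEB1 IP and IgG by experiment, and deviations of same-numbered libraries correlated at -0.00536 over 13086 genes. The members and gene lists were chosen with earlier results of these data known. Besides the 4 factors, the 2 tested genes of each list with the highest mean input FPKM were named, the genes of short lists that were called, and the 3 genes most like Myod1 and Myf5. Some items that this rule covers are not reported here.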

Additional observations from a re-analysis of the deposited data

How the results depend on the processing

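Against input, Myod1 and Myog kept their direction and their call in all 10 alternatives. With the deposited FPKM, which was not tested, IgG over input was close to 1 for Myod1. Over IgG, Myod1 lost its call under the replicate block (0.26, adjusted p = 0.109 in the edgeR quasi-likelihood test) and ranged from 0.21 to 0.36 on the log2 scale with a library left out. The block changed no other call among the 4 factors. Myf5 over IgG turned positive with DESeq2 (0.24), with no filter (0.34) and with all 6 libraries in 1 fit (0.025), and ranged from -0.19 to 0.15 with a library left out. Over input, Myf5 ranged from -0.55 to 0.16 in CPEB1 IP and from -0.57 to 0.087 in IgG with a library left out, and was -0.56 in IgG with no filter (adjusted p = 0.0463 in the edgeR quasi-likelihood test). The cause was not tested.

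Genes called higher and lower over IgG became 3513 higher with no filter and 984 lower with DESeq2, and 1054 to 1783 higher and 677 to 1750 lower with a library left out. DESeq2 gave 1230 higher and 1190 lower for CPEB1 IP over input and 1188 higher and 1602 lower for IgG over input. With a library left out the former were 957 to 2646 and 1064 to 2347, and the latter 1354 to 2170 and 1709 to 2400.

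The mean log2 FPKM ratio fell from 1.06 to 0.36 for Myod1 and from 0.75 to 0.053 for Myf5 with TMM library sizes. It moved from 1.16 to 2.15 and 0.42 for Myog, and from 0.67 to 2.25 and 0.17 for Myf6, with pseudocounts of 0.1 and 5. Without gene length the Myod1 to Myf5 ratio was 3.63 in IgG and 4.49 in CPEB1 IP. With all listed motifs Myod1 had 2 CPEs and Myog 1, and in the last 200 bases Myf6 had 0.

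Of the other genes named, log2 fold changes near 0 changed sign. Over IgG these were Pax7 (-0.045 without composition normalization, -0.032 to 0.17 with a library left out) and Mef2d (0.28 with DESeq2, 0.011 with RLE, 0.40 with no filter, 1.98e-04 with the block, 0.065 with 6 libraries, 0.027 to 0.067 with a library left out). For IgG over input these were Msc (-0.12 with no filter) and Musk (-0.12 with DESeq2, -0.25 with no filter, -0.0078 to 0.049 with a library left out). For CPEB1 IP over input it was Zfp36l1 (-0.037 without composition normalization, -0.013 with 6 libraries, -0.018 to 0.059 with a library left out).

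With 2 libraries a group, the tests lean on variation pooled over genes. Counts of Myog and Myf6 in IgG limit any comparison with it.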
